A study of Mus musculus with 2 samples.

Results

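The 7 genes described here mark regulatory T cells (Treg cells) in the mouse: *Foxp3*, *Il2ra*, *Ctla4*, *Ikzf2*, *Tnfrsf18*, *Tnfrsf4*, and *Il10*. They were taken by name from a list of Treg genes, and 7 of 7 were among the 20299 genes of the deposited table. Counts of unique molecular identifiers (UMIs) were added up by library within the clusters that the authors named, and cells holding at least 1 *Foxp3* UMI were counted. The data come from kidneys of mice with nephrotoxic serum nephritis (NTN), a model in which antibodies against the glomerulus injure the kidney of an animal already immunized against the donor's immunoglobulin. Single-cell RNA sequencing covered 1 WT library and 1 library from *Vsir-/-* mice, which lack VISTA, an inhibitory checkpoint molecule, in all cells from the germline on. Both groups were C57BL/6 mice aged 8 weeks that received 200 µg of sheep IgG with Freund's complete adjuvant into the peritoneum and, 4 days later, nephrotoxic serum from sheep by vein, at 2 µL per g of body weight according to the sample labels, whereas the study's methods give a higher dose. Both kidney preparations were digested with liberase (0.2 mg/mL) for 30 minutes at 37°C. The label of the WT library describes sorted CD45+ cells and that of the *Vsir-/-* library describes kidney cells of every kind, whereas the study's methods describe a CD45+ sort without this distinction. The number of mice pooled in a library is not given in the sources used here, and no untreated mice were analysed here, so the comparison asks how Treg transcripts were distributed in inflamed kidneys with and without VISTA.

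Treg cells are CD4+ T cells that restrain other immune cells. *Foxp3* encodes the forkhead transcription factor that defines the lineage, and *Ikzf2* encodes Helios, a zinc finger factor carried by many Treg cells and by activated or innate-like lymphocytes. *Il2ra* encodes CD25, the high-affinity chain of the IL-2 receptor, which in Treg cells drives STAT5. *Ctla4* encodes an inhibitory receptor that competes with CD28 for CD80 and CD86, *Tnfrsf18* (GITR) and *Tnfrsf4* (OX40) encode costimulatory receptors of the TNF receptor family, and *Il10* encodes an antiinflammatory cytokine that macrophages also make. None of the 6 other genes is specific to Treg cells: ILC2, gamma delta T cells, NK cells, and activated conventional T cells express several of them.

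There were 5470 cells and 32799550 UMIs in the WT library, against 1844 cells and 18601189 UMIs in the *Vsir-/-* library. *Vsir* itself stood at 130 UMIs per 1000000 UMIs (CPM) in the WT library and at 0.430 CPM in the *Vsir-/-* library. With 1 library per genotype there is no replicate check, so no p-value is given, and the 95% intervals below (Poisson for CPM, Clopper-Pearson for shares, exact conditional for ratios, Newcombe for differences of shares, each written after its value as a lower and an upper bound) cover counting error only, not the spread between cells or mice. T cells were defined as cells of the 4 CD4+ and CD8+ clusters with a *Cd3d*, *Cd3e*, *Cd3g*, *Trac*, *Trbc1*, or *Trbc2* UMI. This left 2235 WT and 435 *Vsir-/-* T cells and dropped 5 and 236 cells, with median depths of 5331 and 5943 UMIs per kept cell. Transcripts of 18 kidney tubule genes made up 93.9 CPM of the WT T cells, with 13 genes at 0, and 5382 CPM of the *Vsir-/-* T cells, with none at 0. *Spp1* (1.45 and 1058 CPM), *Gpx3* (0 and 1050), *Fxyd2* (0.457 and 734), and *Kap* (0 and 173) were among those with the most UMIs. The genotype, the labelled sort, and this tubule RNA cannot be told apart in these libraries, and 5 cell barcodes occurred in both.

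*Foxp3* stood highest in the effector memory-like (EM-like) CD4+ T cell cluster, which held 24 of the 59 WT and 15 of the 20 *Vsir-/-* cells with a *Foxp3* UMI. In WT mice that cluster held 52 *Foxp3* UMIs, or 18.6 CPM (95% interval, 13.9 to 24.3), in 24 of 489 cells. In *Vsir-/-* mice it held 39 UMIs, or 24.7 CPM (17.6 to 33.8), in 15 of 244 cells. The non-EM-like CD4+ cluster came lower, at 6.96 CPM (4.73 to 9.88) with 14 of 895 cells in WT mice and at 0.653 CPM (0.135 to 1.91) with 3 of 349 cells in *Vsir-/-* mice, where 116 of the 349 cells held a T cell transcript. The 2 CD8+ clusters held 1 *Foxp3*-positive cell each in WT mice and none in *Vsir-/-* mice, where 28 EM-like and 50 non-EM-like CD8+ cells allow a share of up to 10.7% and 6.00%. Of the 16 clusters, 5 had no *Foxp3* UMI in WT mice, and 11 of 15 had none in *Vsir-/-* mice. B cells, which do not express *Foxp3*, were among them, with 0 of 969 WT cells (a share of up to 0.310%) and 0 of 88 *Vsir-/-* cells (up to 3.41%), at median depths of 3426 and 3596.5 UMIs.

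**Figure D1:**
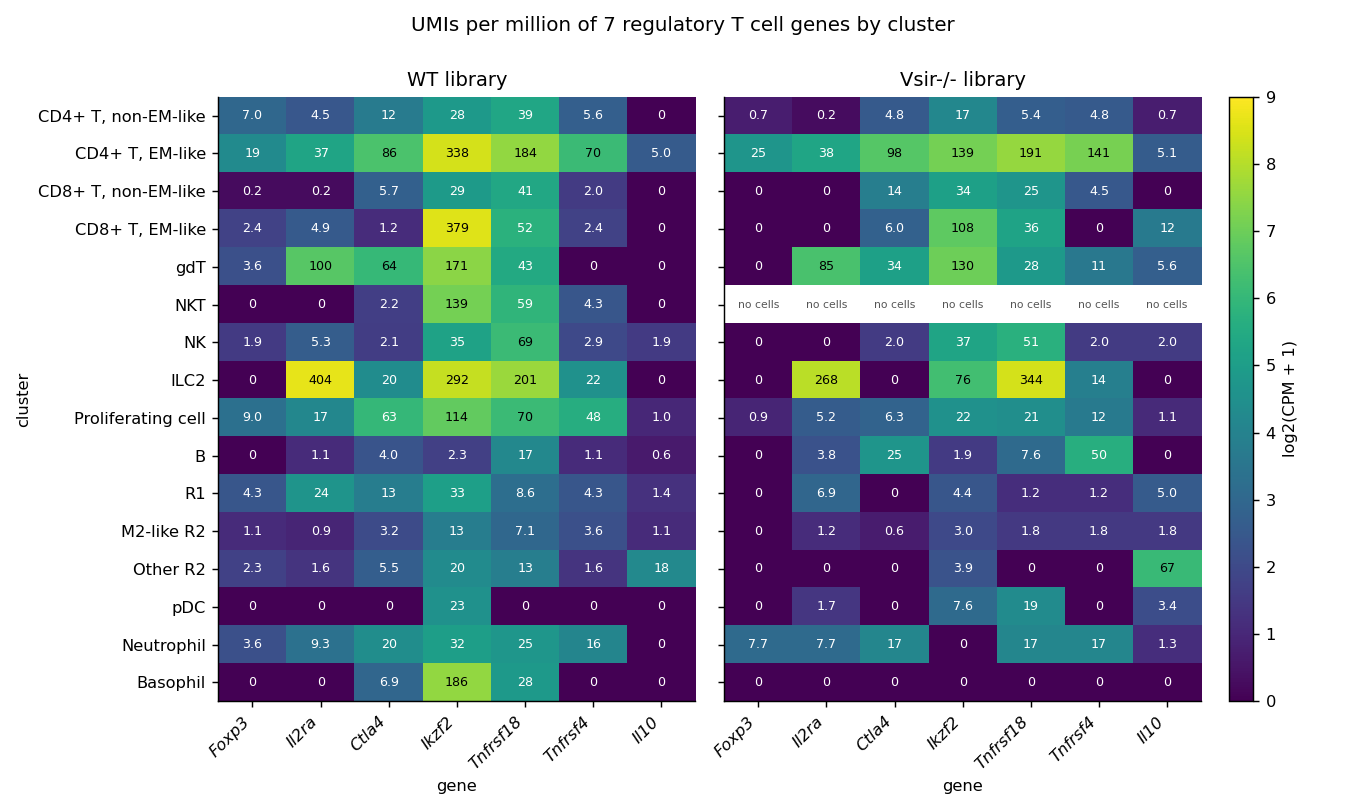
CPM (UMIs per 1000000 UMIs) of the 7 genes (columns) in each cluster (rows) of the WT library (left) and the Vsir-/- library (right), with the color giving log2(CPM + 1) and the number in each tile the CPM. In each library Foxp3 stood highest in the EM-like CD4+ cluster (18.6 and 24.7 CPM), whereas Il2ra stood highest in ILC2 (404 and 268 CPM) and Il10 in the Other R2 cluster (18.0 and 67.3 CPM).

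Taken over T cells, 40 of 2235 WT cells (1.79%, 1.28% to 2.43%) and 18 of 435 *Vsir-/-* cells (4.14%, 2.47% to 6.46%) held a *Foxp3* UMI. The share was 2.35 percentage points higher in *Vsir-/-* mice (0.714 to 4.70). After each cell was thinned to 1000 UMIs the shares were 0.631% and 1.62%, which differed by 0.993 points (0.0552 to 2.70). The difference depended on which cells were counted: over all cells of the 4 clusters, with or without a T cell transcript, the shares were 1.79% and 2.68%, and the interval of their difference (0.897 points, -0.271 to 2.49) held 0. Within the clusters the shares lay closer together. The EM-like CD4+ shares were 4.96% and 6.17%, a difference of 1.21 points (-2.12 to 5.30), and those of the non-EM-like CD4+ cluster 1.56% and 2.59%, a difference of 1.02 points (-0.976 to 5.81). EM-like CD4+ cells made up 21.7% of the WT and 55.9% of the *Vsir-/-* T cells, and CD8+ cells 38.3% and 17.5%. When the *Vsir-/-* clusters were weighted by the WT cluster sizes, the *Vsir-/-* share was 2.37%. The mix of T cell clusters moved together with the pooled share, and whether the labelled sort shaped that mix was not tested.

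**Figure D2:**
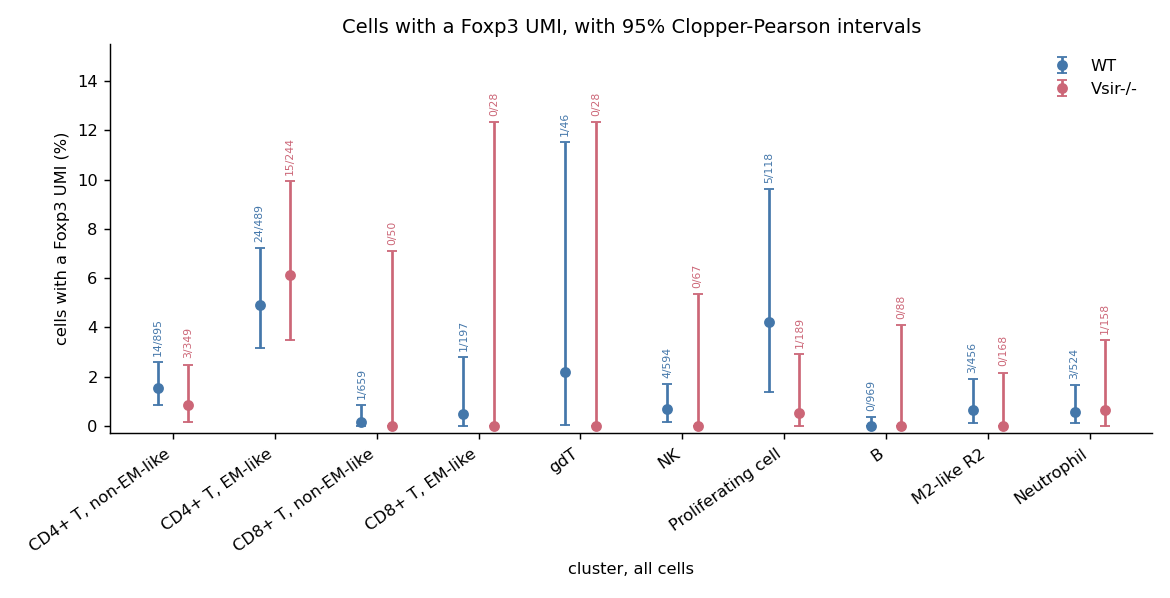
Share of cells with at least 1 Foxp3 UMI (percent, y axis) in 10 clusters (x axis, all cells of the cluster) of the WT library (blue) and the Vsir-/- library (red). Bars are 95% Clopper-Pearson intervals and the labels give cells with a UMI over all cells; in EM-like CD4+ T cells 24 of 489 WT cells and 15 of 244 Vsir-/- cells were positive, and the intervals overlapped.

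A further 21 cells with a *Foxp3* UMI lay outside the T cell clusters, 19 in WT and 2 in *Vsir-/-* mice. They were spread over proliferating cells (5 of 118 in the WT and 1 of 189 in the *Vsir-/-* library), NK cells (4 WT cells), neutrophils (3 and 1 cells), M2-like R2 macrophages (3 WT cells), Other R2 macrophages (2 WT cells), R1 macrophages (1 WT cell), and gamma delta T cells (1 WT cell), where R1 and R2 are the study's names for kidney-resident and infiltrating macrophages. Of these 21 cells, 20 also held a T cell transcript. Among all WT cells, 505 of 594 NK cells, 114 of 118 proliferating cells, and 45 of 46 gamma delta T cells held one. So did 141 of 524 WT neutrophils and 222 of 456 WT M2-like R2 cells. Of the 21 cells, 17 had more UMIs than the median of their cluster, at a median of 2.09 times that value. Cells picked for a UMI of a rare transcript tend to be deep, so this depth cannot tell doublets from single cells. Without the proliferating cells, which can include dividing T cells, 14 of 15 held a T cell transcript. No doublet call was made, so the part of doublets in these cells was not tested.

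The IL-2 receptor chain *Il2ra* was most abundant in ILC2, with 404 CPM (344 to 471) in WT and 268 CPM (191 to 367) in *Vsir-/-* mice, where 56 of 79 and 12 of 19 cells held a UMI. Gamma delta T cells followed, at 99.8 CPM (66.3 to 144) and 84.6 CPM (47.4 to 140), and the EM-like CD4+ cluster came after them, at 36.7 and 38.0 CPM. The log2 ratio of *Vsir-/-* over WT mice was -0.58 (-1.13 to -0.080) in ILC2, and its interval held 0 in gamma delta T cells (-0.22, -1.25 to 0.72). In ILC2 a single cell held 36 of the 163 WT UMIs, and another held 12 of the 39 *Vsir-/-* UMIs. Whether the ILC2 ratio holds without these cells was not tested. After thinning to the common depth, the shares of ILC2 with an *Il2ra* UMI were 24.4% in WT and 26.3% in *Vsir-/-* mice. T cell clusters accounted for 30.3% (WT) and 37.9% (*Vsir-/-*) of the *Il2ra* UMIs, against 65.2% and 80.8% of the *Foxp3* UMIs.

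*Ctla4* followed *Foxp3* more closely, with its peak in the EM-like CD4+ cluster (85.6 CPM in the WT and 97.6 CPM in the *Vsir-/-* library). Gamma delta T cells came next, at 64.1 and 33.9 CPM. In proliferating cells *Ctla4* stood at 62.7 CPM in WT and 6.30 CPM in *Vsir-/-* mice, and 1 WT cell held 51 of the 126 WT UMIs. A T cell transcript was found in 114 of 118 WT and 66 of 189 *Vsir-/-* proliferating cells, and in these *Ctla4* stood at 62.7 and 18.7 CPM. Among *Vsir-/-* B cells, 1 cell held 11 of 13 *Ctla4* UMIs and 1 cell held 22 of 26 *Tnfrsf4* UMIs, so the B cell levels of these genes in the plot of CPM by cluster rest on very few cells.

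The TNF receptor family genes *Tnfrsf18* and *Tnfrsf4*, which are neighbors on chromosome 4, had different ranges. *Tnfrsf18* was broad, with 201 CPM in ILC2 of WT mice and 344 CPM in those of *Vsir-/-* mice, 184 and 191 CPM in the EM-like CD4+ cluster, and 69.2 and 51.3 CPM in NK cells, where 191 of 594 and 17 of 67 cells held a UMI. *Tnfrsf4* was narrower, with 69.6 CPM (WT) and 141 CPM (*Vsir-/-*) in the EM-like CD4+ cluster but 2.93 and 1.97 CPM in NK cells.

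*Ikzf2* was not confined to the clusters with *Foxp3*. Its highest WT levels were in EM-like CD8+ T cells (379 CPM, 112 of 197 cells), EM-like CD4+ T cells (338 CPM), and ILC2 (292 CPM), followed by basophils (186 CPM), gamma delta T cells (171 CPM), and NKT cells (139 CPM). The *Vsir-/-* order began with the EM-like CD4+ cluster (139 CPM), gamma delta T cells (130 CPM), and EM-like CD8+ T cells (108 CPM). *Il10* was rare in T cells: 14 UMIs in 6 WT cells and 13 UMIs in 8 *Vsir-/-* cells lay in the T cell clusters, or 25.9% and 14.8% of its UMIs. Its highest level was in the Other R2 macrophages, at 18.0 CPM (11.4 to 26.9) with 9 of 188 cells in WT mice and 67.3 CPM (50.3 to 88.2) with 18 of 131 cells in *Vsir-/-* mice. These intervals did not overlap, and the shares of cells after thinning to 1000 UMIs were 1.67% and 7.09%.

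T cells with a *Foxp3* UMI (Foxp3+ T cells) carried 5 of the 6 other transcripts at several times the level of T cells without one (Foxp3- T cells), in both libraries. The Foxp3+ cells held 1 to 6 *Foxp3* UMIs in WT mice and 1 to 5 in *Vsir-/-* mice, with a median of 2 in each, and 18 of 40 and 8 of 18 of them held 1. Because a Treg cell can miss its few *Foxp3* transcripts, the Foxp3- set may hold Treg cells too. *Ctla4* stood at 555 CPM (462 to 662) in Foxp3+ and 15.4 CPM (13.4 to 17.7) in Foxp3- T cells of WT mice, a 36.0-fold difference. The *Vsir-/-* levels were 357 CPM (270 to 464) and 38.8 CPM (32.3 to 46.2), a 9.27-fold difference. *Tnfrsf4* was 32.6-fold higher in WT Foxp3+ cells (373 against 11.5 CPM) and 18.8-fold higher in *Vsir-/-* Foxp3+ cells (747 against 39.7 CPM). *Il2ra* was 24.0-fold higher (164 against 6.90 CPM) and 6.28-fold higher (89.3 against 14.6 CPM). *Ikzf2* was 8.33-fold higher (857 against 103 CPM) and 8.52-fold higher (511 against 60.2 CPM), and *Tnfrsf18* was 4.99-fold higher (333 against 67.2 CPM) and 6.57-fold higher (530 against 80.9 CPM). For these 5 genes the Poisson intervals of the Foxp3+ and Foxp3- cells did not overlap in either library. After thinning to 1000 UMIs per cell, 0 of 18 *Vsir-/-* Foxp3+ cells kept an *Il2ra* UMI. The log2 ratio of -0.23 found there rests on the pseudocount and cannot decide the *Il2ra* contrast of *Vsir-/-* mice. *Il10* had 10 UMIs in 4 WT Foxp3+ cells and 4 UMIs in all 2195 Foxp3- cells, and 2 and 8 UMIs in *Vsir-/-* mice, which was too few to count it among the genes tested.

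Of the 5 other genes with at least 20 UMIs, 5 were at least 2-fold higher in Foxp3+ T cells in each library, against 18.1% of 10455 genes in WT and 14.8% of 10255 genes in *Vsir-/-* mice, and none was at least 2-fold lower, against 7.33% and 14.4%. With the stricter rule that the whole interval lie above 2-fold, 5 of 5 passed again in each library, against 1.37% and 0.936% of all genes. The median log2 ratio of the 5 genes was 4.59 in WT and 3.09 in *Vsir-/-* mice, beside 0.30 and 0.20 over all genes. These genes were chosen with earlier results of these data known, so their counts are not independent support. The contrast also stood within the EM-like CD4+ cluster, where the log2 ratios in WT mice were 3.82 for *Ctla4*, 3.63 for *Tnfrsf4*, 2.38 for *Il2ra*, 1.83 for *Ikzf2*, and 1.39 for *Tnfrsf18*. The corresponding *Vsir-/-* values were 2.69, 4.04, 2.21, 2.87, and 2.56. The Foxp3+ cells were 1.79% of the WT T cells but held 38.6% of their *Ctla4* UMIs, 36.2% of *Tnfrsf4*, 29.4% of *Il2ra*, 12.7% of *Ikzf2*, and 7.96% of *Tnfrsf18*. Of the *Vsir-/-* T cells, the Foxp3+ cells held 30.9%, 47.8%, 23.0%, 29.2%, and 24.1%.

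**Figure D3:**
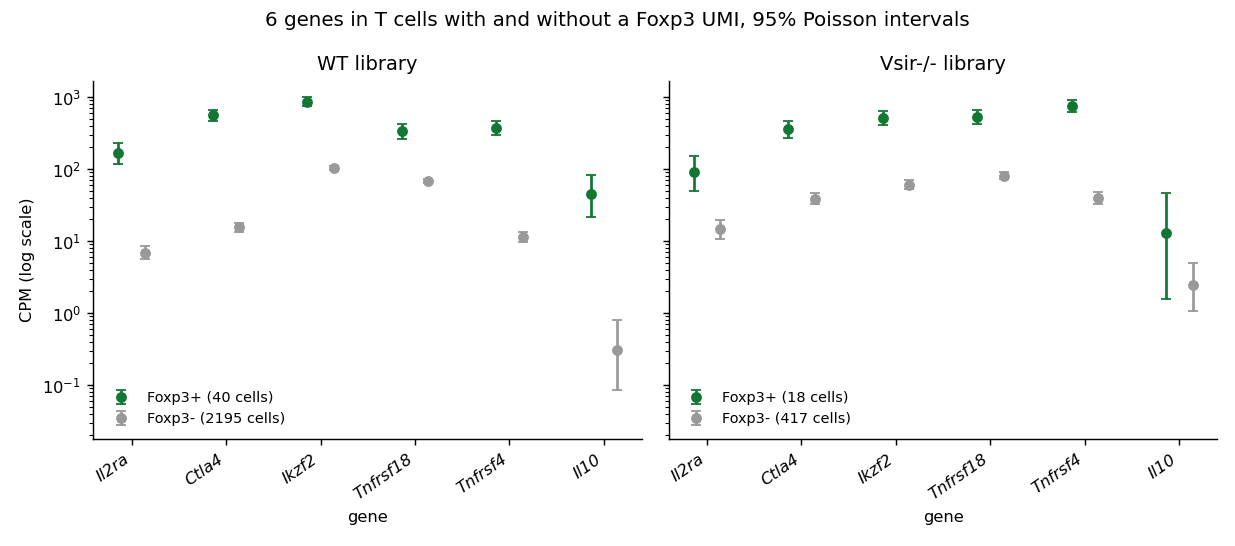
CPM (y axis, log scale) of the 6 other genes (x axis) in Foxp3+ T cells (green) and Foxp3- T cells (gray) of the WT library (left) and the Vsir-/- library (right), with 95% Poisson intervals. For every gene but Il10 of Vsir-/- mice, which rests on 2 and 8 UMIs, the intervals of the Foxp3+ and Foxp3- cells lay apart.

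The lineage of the Foxp3+ T cells was checked with coreceptor transcripts. In WT mice 18 of 40 held *Cd4* without *Cd8a* or *Cd8b1*, and 3 held a *Cd8* transcript alone, against 22.3% and 41.2% of the Foxp3- T cells. In *Vsir-/-* mice 11 of 18 held *Cd4* alone and 0 a *Cd8* transcript alone, against 25.9% and 26.4%. The 5 B cell markers summed to 515 CPM in WT Foxp3+ and 204 CPM in Foxp3- T cells, and to 217 and 73.5 CPM in *Vsir-/-* mice. The 18 tubule genes summed to 249 and 91.2 CPM in WT mice and to 1947 and 5549 CPM in *Vsir-/-* mice. The 3 gamma delta T cell markers summed to 235 and 70.8 CPM in WT mice and to 19.1 and 56.4 CPM in *Vsir-/-* mice. The part of this other RNA in the contrasts was not tested.

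Because the genes stood high in the same cells, the RefSeq promoter windows of the genes that had one (5 of 7 genes, 6 windows, 250 bases before to 50 after the annotated start, GRCm38.p6) were searched on both strands for the forkhead core TAAACA, the NFAT core GGAAA, and the STAT5 motif TTCNNNGAA, where N is any base. The forkhead letters occurred in 1 of 6 windows, that of the upstream *Foxp3* start, and in 13.4% of all 32851 windows. The NFAT core occurred in 6 of 6 windows and in 61.3% of all windows, and the STAT5 motif in 2 of 6 windows and in 8.30% of all windows. A match describes letters only and is not a binding site. Shown are 3 windows, each on the plus strand with matches on either strand in capitals: *Foxp3* because it defines the cells (chrX:7579426-7579725), *Ctla4* because it had the largest WT contrast of the 5 genes tested (chr1:60908775-60909074), and *Tnfrsf18* because it holds a STAT5 match (chr4:156026072-156026371).
Foxp3: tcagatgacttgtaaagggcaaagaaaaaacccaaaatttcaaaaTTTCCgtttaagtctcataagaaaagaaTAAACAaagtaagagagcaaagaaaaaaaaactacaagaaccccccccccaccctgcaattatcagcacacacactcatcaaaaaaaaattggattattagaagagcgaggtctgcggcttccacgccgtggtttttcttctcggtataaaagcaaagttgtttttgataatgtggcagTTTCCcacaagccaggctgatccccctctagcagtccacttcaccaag
Ctla4: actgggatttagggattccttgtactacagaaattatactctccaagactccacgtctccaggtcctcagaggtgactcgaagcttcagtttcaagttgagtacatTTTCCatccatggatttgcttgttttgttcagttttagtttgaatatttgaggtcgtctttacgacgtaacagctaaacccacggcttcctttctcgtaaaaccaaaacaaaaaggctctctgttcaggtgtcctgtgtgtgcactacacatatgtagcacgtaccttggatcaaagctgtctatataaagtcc
Tnfrsf18: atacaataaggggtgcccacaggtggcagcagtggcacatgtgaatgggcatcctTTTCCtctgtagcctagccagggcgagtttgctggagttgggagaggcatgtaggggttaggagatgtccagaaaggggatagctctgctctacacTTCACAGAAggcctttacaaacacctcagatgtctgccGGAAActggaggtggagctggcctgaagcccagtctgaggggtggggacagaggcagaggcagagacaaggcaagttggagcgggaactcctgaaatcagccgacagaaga

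How many of the 6 other genes a cell held also set Foxp3+ cells apart. In WT mice 22 of 40 Foxp3+ T cells (55.0%, 38.5% to 70.7%) held UMIs of at least 3 of them, against 39 of 2195 Foxp3- T cells (1.78%, 1.27% to 2.42%). In *Vsir-/-* mice 17 of 18 Foxp3+ T cells (94.4%, 72.7% to 99.9%) and 35 of 417 Foxp3- T cells (8.39%, 5.92% to 11.5%) did so. After thinning to 1000 UMIs the shares were 28.2% and 0.275% in WT mice and 11.1% and 1.21% in *Vsir-/-* mice. The higher unthinned share of *Vsir-/-* Foxp3+ cells was thus not seen at a common depth. The thinned share rests on 18 cells and a single random draw, so it cannot decide whether the libraries differ. Per Foxp3+ cell, *Ikzf2* ranged from 0 to 21 UMIs (median 2) among WT and from 0 to 13 UMIs (median 4) among *Vsir-/-* cells. *Ctla4* ranged from 0 to 30 (median 1) and from 0 to 15 (median 1.5), and *Tnfrsf4* from 0 to 13 (median 0) and from 0 to 34 (median 3).

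**Figure D4:**
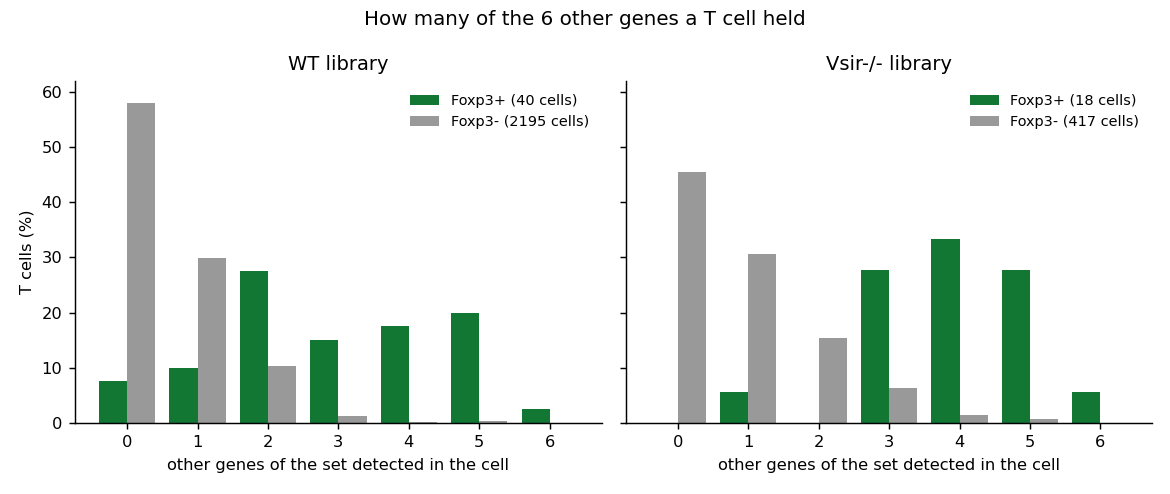
Percent of T cells (y axis) that held UMIs of 0 to 6 of the other genes (x axis) among Foxp3+ T cells (green) and Foxp3- T cells (gray) of the WT library (left) and the Vsir-/- library (right), at the depth as sequenced. Among Foxp3+ cells, 22 of 40 (WT) and 17 of 18 (Vsir-/-) held at least 3 other genes.

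Between the genotypes, the pooled T cell levels of most of the genes were higher in *Vsir-/-* mice. *Foxp3* stood at 6.55 CPM in WT and 12.4 CPM in *Vsir-/-* T cells (log2 ratio 0.93, 0.35 to 1.47), *Il2ra* at 9.60 and 18.0 CPM (0.92, 0.44 to 1.36), *Ctla4* at 24.7 and 53.5 CPM (1.12, 0.85 to 1.38), *Tnfrsf18* at 71.8 and 102 CPM (0.50, 0.32 to 0.68), and *Tnfrsf4* at 17.7 and 72.5 CPM (2.03, 1.77 to 2.30). *Ikzf2* went the other way, at 116 and 81.0 CPM (-0.52, -0.71 to -0.33). *Il10* rested on 14 and 10 UMIs (1.49, 0.14 to 2.75). At least 2-fold higher were 3 of 7 genes (*Ctla4*, *Il10*, and *Tnfrsf4*), against 26.8% of 12383 genes, and 0 of 7 were at least 2-fold lower, against 6.36%. The median log2 ratio of the 7 genes was 0.93 and that of all genes 0.34. Over all cells of the 4 clusters, with or without a T cell transcript, the directions turned for *Foxp3* (-0.071), *Il2ra* (-0.11, -0.58 to 0.34), and *Tnfrsf18* (-0.50, -0.69 to -0.32). The *Vsir-/-* UMIs of these genes (42, 61, and 344) were the same in both settings. For these genes the 236 *Vsir-/-* cells without a T cell transcript thus added to the UMI total alone. Over all cells the *Vsir-/-* UMIs were 330 rather than 274 for *Ikzf2*, 183 rather than 181 for *Ctla4*, and 247 rather than 245 for *Tnfrsf4*. The pooled ratios also shifted with the makeup of the T cells. With the WT cluster sizes used for both libraries, the log2 ratios were -0.082 for *Foxp3*, -0.18 for *Il2ra*, 0.40 for *Ctla4*, -0.26 for *Tnfrsf18*, 1.08 for *Tnfrsf4*, and -1.05 for *Ikzf2*. These values have no interval, and the 116 *Vsir-/-* non-EM-like CD4+ T cells that they weight up held 3 *Foxp3* and 1 *Il2ra* UMIs. The share of cells with a *Foxp3* UMI under the same sizes was 1.79% in WT and 2.37% in *Vsir-/-* mice.

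Within the EM-like CD4+ T cell cluster, the one that held most of the *Foxp3* UMIs of the T cells, 2 of the 7 genes differed at least 2-fold between the libraries when cells with a T cell transcript were compared. *Tnfrsf4* stood at 70.1 CPM in WT and 141.5 CPM in *Vsir-/-* cells (log2 ratio 1.01, 0.73 to 1.30). *Ikzf2* stood at 339 and 139.6 CPM (-1.28, -1.50 to -1.07). These made 1 gene of 7 higher, against 10.4% of 9743 genes, and 1 of 7 lower, against 5.41%. For the other 5 genes the interval of the log2 ratio held 0: *Foxp3* 0.41 (-0.23 to 1.03), *Il2ra* 0.07 (-0.42 to 0.54), *Ctla4* 0.17 (-0.14 to 0.47), *Tnfrsf18* 0.05 (-0.16 to 0.26), and *Il10* 0.05 (-1.45 to 1.37). For *Tnfrsf18*, *Ctla4*, and *Il2ra* the intervals lay within 2-fold in either direction, whereas those of *Foxp3* and *Il10* did not. They cover counting error only, so they cannot exclude a 2-fold difference between the genotypes. *Tnfrsf4* UMIs lay in 59 of 243 *Vsir-/-* and 52 of 484 WT cells, and 1 cell held 34 and 38 of them, respectively. The tubule genes summed to 125 CPM in WT and 4163 CPM in *Vsir-/-* cells of this cluster. Markers of NK cells (783 and 215 CPM), neutrophils (253 and 98.4 CPM), B cells (223 and 108 CPM), and gamma delta T cells (147 and 75.5 CPM) were lower in the *Vsir-/-* cells. Those of ILC2 (628 and 524 CPM) and dendritic cells (277 and 192 CPM) were lower too. Markers of macrophages and monocytes (74.4 and 109 CPM), basophils (17.3 and 21.6 CPM), and cycling cells (98.9 and 122 CPM) were higher. The part of this other RNA in these ratios was not tested.

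**Figure D5:**
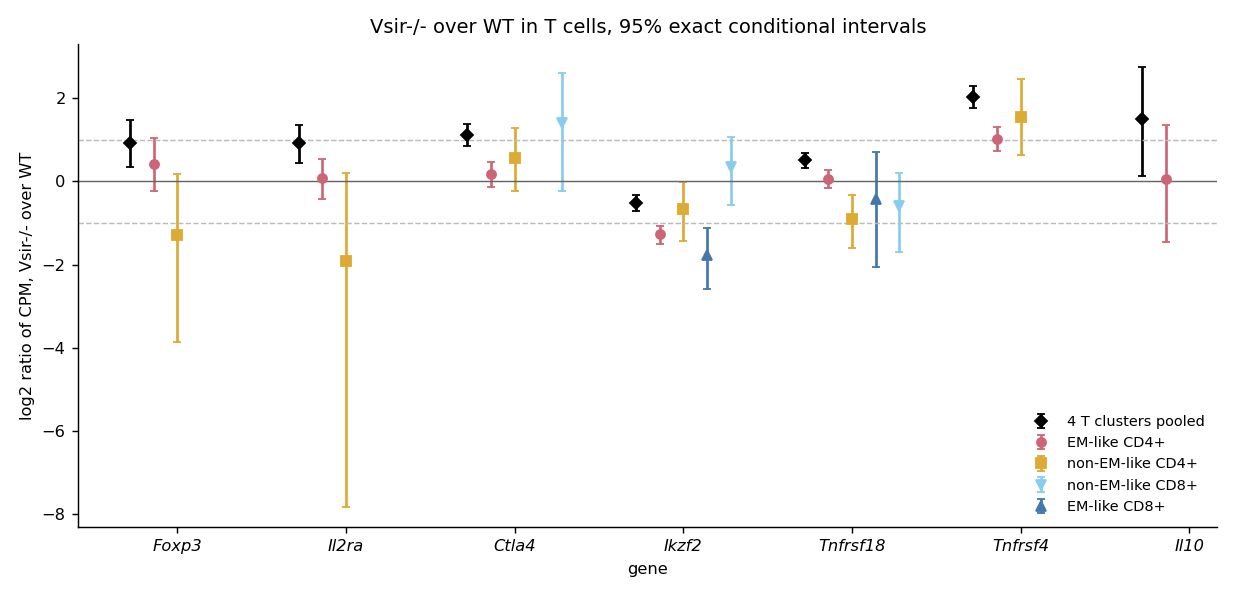
Log2 ratio of CPM, Vsir-/- over WT (y axis), of the 7 genes (x axis) in the pooled T cells (black) and in each T cell cluster (colors), with 95% exact conditional intervals. Values resting on fewer than 20 UMIs, or with a library at 0, are not drawn; the solid line marks equal levels and the dashed lines a 2-fold difference. In EM-like CD4+ T cells Tnfrsf4 lay at 1.01 and Ikzf2 at -1.28, and the intervals of the other 5 genes crossed 0.

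The lower *Ikzf2* level of *Vsir-/-* mice was also found in clusters other than EM-like CD4+ T cells. The EM-like CD8+ cluster had 379 CPM (WT) and 108 CPM (*Vsir-/-*) (log2 ratio -1.77, -2.58 to -1.12), although the *Vsir-/-* value rests on 18 UMIs in 8 of 28 cells. In ILC2 it was 292 and 75.6 CPM (-1.89, -2.99 to -1.06), resting on 11 UMIs in *Vsir-/-* mice. Outside the lymphoid clusters it was lower in R1 (-2.85, -4.38 to -1.65), Other R2 (-2.14, -4.70 to -0.62), and M2-like R2 macrophages (-2.0, -3.80 to -0.81), and neutrophils held it at 32.2 CPM in WT mice and had 0 UMIs in *Vsir-/-* mice. In R1 of WT mice, 1 cell held 13 of the 23 UMIs. A T cell transcript was found in 37 of 116 WT and 13 of 237 *Vsir-/-* R1 cells. In Other R2 it was found in 46 of 188 and 5 of 131 cells. M2-like R2 had 222 of 456 and 14 of 168, and neutrophils 141 of 524 and 8 of 158. *Tnfrsf18* was also lower in R1 (-2.58), Other R2 (17 and 0 UMIs), and M2-like R2 (-1.78). *Il10* stood higher in Other R2 of *Vsir-/-* mice (23 WT and 52 *Vsir-/-* UMIs). Its Poisson intervals overlapped in R1 (1 and 8 UMIs) and M2-like R2 (5 and 3 UMIs). The part of T cell RNA in these ratios was not tested. In proliferating cells with a T cell transcript the *Ikzf2* ratio was -1.0 (-1.39 to -0.64). There 54 of 114 WT and 18 of 66 *Vsir-/-* cells held an *Ikzf2* UMI, and 1 *Vsir-/-* cell held 49 of the 83 UMIs. In gamma delta T cells (-0.38, -1.18 to 0.35), NK cells (0.13, -0.68 to 0.79), and non-EM-like CD8+ T cells (0.35, -0.57 to 1.08) the intervals held 0. Within the EM-like CD4+ cluster, cells with a *Cd8* transcript and no *Cd4* (93 of 484 WT and 40 of 243 *Vsir-/-* cells) held *Ikzf2* at 442 and 82.8 CPM (-2.39, -3.08 to -1.82). Cells with *Cd4* alone (92 and 76 cells) held it at 213 and 123 CPM (-0.79, -1.25 to -0.35). The share of *Cd4*-alone cells with an *Ikzf2* UMI was 29.3% in WT and 28.9% in *Vsir-/-* mice, so in these cells the levels differed while the shares lay close together.

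In the *Cd4*-alone cells of this cluster, *Foxp3* stood at 18.4 CPM (9.21 to 33.0, 11 UMIs in 8 of 92 cells) in WT and 49.9 CPM (32.6 to 73.1, 26 UMIs in 11 of 76 cells) in *Vsir-/-* mice, a log2 ratio of 1.40 (0.37 to 2.60). *Tnfrsf4* (1.05, 0.68 to 1.44), *Tnfrsf18* (0.78, 0.38 to 1.20), and *Il2ra* (1.11, 0.07 to 2.27) were also higher in these cells of *Vsir-/-* mice, and the interval of *Ctla4* held 0 (0.23, -0.20 to 0.66). The *Il2ra* ratio rests on 12 UMIs in 11 of 92 WT cells (12.0%) and 23 UMIs in 10 of 76 *Vsir-/-* cells (13.2%), so its shares lay close together. In the cells of the cluster with neither coreceptor transcript (289 and 124 cells) the intervals of *Foxp3* (-0.49, -1.68 to 0.51), *Il2ra* (-0.03, -0.70 to 0.60), and *Tnfrsf4* (0.35, -0.20 to 0.87) held 0, and *Tnfrsf18* was lower in *Vsir-/-* mice (-0.33, -0.63 to -0.044). In the cells with a *Cd8* transcript alone, *Il2ra* rested on 19 WT and 2 *Vsir-/-* UMIs (-1.77, -5.20 to -0.0050), and *Tnfrsf4* on 15 and 0 UMIs. *Cd4*-alone cells were 19.0% of this cluster in WT and 31.3% in *Vsir-/-* mice. This split by coreceptor was chosen after the values by cluster had been seen.

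In non-EM-like CD4+ T cells the genes stood lower and the directions were mixed. *Tnfrsf18* stood at 39.3 CPM in WT cells and at 20.5 CPM in *Vsir-/-* cells (log2 ratio -0.91, -1.60 to -0.33), *Ikzf2* was 27.8 and 17.2 CPM (-0.66, -1.43 to -0.02), and *Tnfrsf4* was 5.61 and 16.4 CPM (1.56, 0.62 to 2.46). The intervals of *Foxp3* (-1.30, -3.85 to 0.18), *Il2ra* (-1.90, -7.83 to 0.19), and *Ctla4* (0.57, -0.24 to 1.29) held 0.

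Among Foxp3+ T cells themselves, 40 in WT and 18 in *Vsir-/-* mice, *Tnfrsf4* stood at 373 CPM (WT) and 747 CPM (*Vsir-/-*, log2 ratio 1.0, 0.58 to 1.42), and 19 of 40 (47.5%, 31.5% to 63.9%) and 17 of 18 cells (94.4%, 72.7% to 99.9%) held a UMI. After thinning to 1000 UMIs these shares were 20.5% and 44.4%. *Tnfrsf18* was also higher in *Vsir-/-* Foxp3+ cells (0.67, 0.20 to 1.14). The CPM of *Ikzf2* (-0.74, -1.14 to -0.36) and *Ctla4* (-0.63, -1.12 to -0.17) were lower. Their shares of cells with a UMI were higher at the depth as sequenced (29 of 40 WT and 16 of 18 *Vsir-/-* cells for *Ikzf2*, 23 and 14 for *Ctla4*). After thinning to 1000 UMIs the *Ctla4* shares were 30.8% in WT and 16.7% in *Vsir-/-* cells, and the *Ikzf2* shares lay close together. The higher shares of both genes were thus not seen at a common depth. The interval of *Il2ra* held 0 (-0.85, -1.88 to 0.04). In Foxp3- T cells the log2 ratio was 1.79 for *Tnfrsf4*, 1.33 for *Ctla4*, 1.09 for *Il2ra*, 0.27 for *Tnfrsf18*, and -0.78 for *Ikzf2*. The higher *Tnfrsf4* level of *Vsir-/-* mice was thus not particular to Foxp3+ cells. A single *Vsir-/-* cell held 57413 of the 156690 UMIs of the 18 Foxp3+ cells. Without the deepest cell of each library, an alternative chosen after seeing the data, the intervals of *Ikzf2* (-0.25, -0.66 to 0.13) and *Ctla4* (-0.47, -1.01 to 0.034) held 0, and the ratios were 1.53 (1.11 to 1.95) for *Tnfrsf4* and 1.25 (0.78 to 1.72) for *Tnfrsf18*. Single cells weighed on these values, since 1 cell held 34 of the 117 *Vsir-/-* *Tnfrsf4* UMIs and 1 cell held 30 of the 125 WT *Ctla4* UMIs. UMIs of 1 cell are not independent of each other, so these intervals are too narrow as a measure of the spread between cells.

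Most other genes that mark Treg cells were also higher in Foxp3+ T cells. Their list was chosen with earlier results of these data known, so its counts are not independent support that these cells are Treg cells. Of 30 such genes, 25 had enough UMIs in WT T cells and 22 of them were at least 2-fold higher in Foxp3+ cells (18.1% over all genes), with a median log2 ratio of 2.51. In *Vsir-/-* mice 17 of 23 were at least 2-fold higher (14.8% over all genes), with a median of 1.40. Between the genotypes, 12 of 29 were at least 2-fold higher and 3 at least 2-fold lower in pooled *Vsir-/-* T cells (26.8% and 6.36% over all genes), and 7 and 2 of 27 in the EM-like CD4+ cluster (10.4% and 5.41%). Among the WT genes with the largest ratios were *Il1rl1*, the IL-33 receptor (66.6 CPM in Foxp3+ and 2.56 CPM in Foxp3- T cells), the chemokine receptors *Ccr8* (22.2 and 1.55 CPM) and *Ccr4* (62.2 and 4.96 CPM), *Swap70* (93.3 and 7.75 CPM), and *Gpr83* (88.9 and 8.84 CPM). In *Vsir-/-* mice *Il1rl1* (38.3 and 8.06 CPM) had an interval above 0 (log2 ratio 2.34, 0.68 to 3.56), whereas the intervals of *Ccr4*, *Ccr8*, *Swap70*, and *Gpr83* held 0.

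Of 16 measured ligands, receptor chains, and signal molecules that work with the 7 genes, 14 had enough UMIs, and 3 of 14 in WT and 0 of 14 in *Vsir-/-* mice were at least 2-fold higher in Foxp3+ T cells, beside 18.1% and 14.8% over all genes. The named ones were *Jak3*, the kinase of the common gamma chain (48.9 and 20.4 CPM in WT Foxp3+ and Foxp3- T cells), *Stat5b* (93.3 and 60.3 CPM), *Cd86* (17.8 and 7.83 CPM), and *Il10ra* (31.1 and 14.4 CPM). Of these, only the WT interval of *Jak3* lay above 0 (log2 ratio 1.32, 0.24 to 2.12). The *Vsir-/-* levels of *Jak3* (12.8 and 15.2 CPM), *Cd86* (12.8 and 10.2 CPM), and *Il10ra* (12.8 and 16.1 CPM) rest on 2 UMIs each in Foxp3+ cells. *Il2*, which Treg cells consume and do not make, had 0 UMIs in Foxp3+ T cells of both libraries. In WT mice this allows up to 13.3 CPM, above the 3.95 CPM of Foxp3- T cells, so no difference was detectable at this depth, and in *Vsir-/-* mice (24.8 CPM in Foxp3- T cells) it makes *Il2* at least 1.30-fold lower.

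Of 12 genes known to be low in Treg cells, 8 in each library were at least 2-fold lower in Foxp3+ T cells (7.33% and 14.4% over all genes) and 0 were at least 2-fold higher. This list too was chosen with earlier results of these data known, so its counts are not independent support. With the genes at 0 UMIs put at the limit of 3 UMIs, 7 in WT and 6 in *Vsir-/-* mice were lower, and the medians were -1.12 and -0.84. *Ifng* stood at 13.3 CPM in Foxp3+ and 49.9 CPM in Foxp3- T cells of WT mice, and at 25.5 and 293 CPM in *Vsir-/-* mice. *Il17a* had 0 UMIs in Foxp3+ T cells of both libraries, which against 126 CPM in *Vsir-/-* Foxp3- T cells made it at least 6.56-fold lower, whereas the WT count of 82 UMIs allows no fold. *Pde3b* (17.8 and 76.1 CPM), *Dapl1* (97.7 and 307 CPM), and *Cd40lg* (13.3 and 44.7 CPM) were lower in WT Foxp3+ T cells. In *Vsir-/-* mice *Dapl1* (44.7 and 47.1 CPM) and *Cd40lg* (63.8 and 95.2 CPM) had intervals that held 0. The genes differed between the libraries: *Igfbp4* was lower in WT Foxp3+ T cells (164 and 370 CPM) and higher in *Vsir-/-* ones (243 and 166 CPM, log2 ratio 0.57, 0.035 to 1.03), and *Il7r* was lower in WT (187 and 399 CPM), while its *Vsir-/-* interval held 0 (230 and 175 CPM). A single *Vsir-/-* cell held 57413 of the 156690 UMIs of the 18 Foxp3+ T cells. Whether the *Vsir-/-* values of the gene lists hold without it was not tested. The EM-like CD4+ cluster held 21.7% of WT and 55.9% of *Vsir-/-* T cells, but 24 of the 40 WT and 15 of the 18 *Vsir-/-* Foxp3+ T cells. The Foxp3+ contrasts of the gene lists were taken over pooled T cells and not within that cluster. The part of this makeup in them was not tested.

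Among all genes other than the 7, with at least 20 UMIs in WT and 4 in *Vsir-/-* Foxp3+ T cells, the 10 with the largest ratio of Foxp3+ over Foxp3- T cells, ranked by the smaller of the 2 libraries' ratios, were *Igkc*, *Klrg1*, *Izumo1r*, *Arl5a*, *Itgav*, *Capg*, *Tnfrsf1b*, *Ifi27l2a*, *S100a10*, and *Pou2f2*. Of these, *Klrg1*, *Izumo1r*, *Capg*, and *Tnfrsf1b* are also in the list of other Treg genes. That list was chosen with earlier results of these data known, so the overlap is not independent support. *Klrg1*, a receptor of late effector lymphocytes, stood at 235 and 27.5 CPM in WT mice and at 128 and 24.8 CPM in *Vsir-/-* mice. *Izumo1r*, the folate receptor-like protein of Treg cells, stood at 227 and 49.4 CPM and at 198 and 10.9 CPM. *Itgav*, an integrin chain that takes part in TGF-beta activation, stood at 151 and 19.1 CPM and at 160 and 40.3 CPM. *Igkc*, an immunoglobulin light chain gene of B lineage cells, lay in 10 of 40 WT and 3 of 18 *Vsir-/-* Foxp3+ cells. Which cells lent it to these barcodes was not tested.

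Across the 29 pairs of cluster and library with at least 20 cells, the pattern of *Foxp3* on the log2(CPM + 1) scale was most like those of *Zfp773* (Pearson r = 0.759), *Ncmap* (0.729), *Gzmc* (0.705), *Zfp683* (0.674), *Izumo1r* (0.664), *Cd40lg* (0.634), *Mov10* (0.593), *Ccl1* (0.587), *Gm13546* (0.583), and *Ccno* (0.579), among 13974 genes with at least 50 UMIs. Of the 6 other genes, *Ctla4* (0.645) and *Tnfrsf4* (0.605) lay within this range, *Il2ra* (0.482) and *Tnfrsf18* (0.454) lay lower, and *Ikzf2* (0.255) and *Il10* (0.0312) lowest. The points share 2 libraries, and *Foxp3* is at 0 in many of them, so these values only describe the clusters.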

How the data were processed

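Kidney cells of 1 WT and 1 *Vsir-/-* library were profiled by droplet-based 3′ single-cell RNA sequencing. The submitters' processing notes name Cell Ranger (3.1.0), R (4.0.3), Seurat (3.2.3), and genome build mm9. The authors' filters, merging, clustering, and cluster names were kept. Each deposited value is a raw count of UMIs for a gene in a cell, a whole number that the authors left unscaled. The deposited percent of mitochondrial UMIs per cell (at most 10) was used only for an alternative limit of 5.

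For each cluster of each library, CPM were computed as a gene's UMIs over all UMIs of the same cells. Log2 ratios used a pseudocount of 0.5 UMIs. Genes with at least 20 UMIs over the 2 cell sets compared were counted as tested, and "called" means past 2-fold, since 1 library per genotype allows no test. A count of 0 was taken to allow up to 3 counts. Cells were thinned to 1000 UMIs without replacement with a fixed seed, and 167 WT and 78 *Vsir-/-* cells lay below that depth. No doublet caller was run and no cells were removed as doublets. The computation of the ratios and intervals was checked on simulated Poisson counts drawn from the real T cell sums. These counts were independent and not grouped by cell. The check therefore cannot show how the intervals hold where 1 cell carries many UMIs of a gene.

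The 7 genes and the gene lists were chosen with earlier results of these data known. The named genes are the 7 genes, the 10 most like *Foxp3* across clusters, the 10 with the largest Foxp3+ ratio (the smaller of the 2 libraries' log2 ratios), the 5 with the largest WT log2 ratio in either direction in each list, and the 5 tubule genes with the most UMIs, of which 1 is not reported here. Promoter windows came from RefSeq (GRCm38.p6), and no coordinates were converted between builds. Software versions were matplotlib 3.10.9, numpy 2.4.6, pandas 2.3.3, Python 3.11.15, and scipy 1.17.1.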

Additional observations from a re-analysis of the deposited data

How the results depend on the processing

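The share of T cells with a *Foxp3* UMI was 1.79% in WT and 4.14% in *Vsir-/-* mice. It was 0.631% and 1.62% after thinning to 1000 UMIs and 0.984% and 2.30% with at least 2 *Foxp3* UMIs, both of which lower the count by construction. In the 2 CD4+ clusters it was 2.76% in WT and 5.01% in *Vsir-/-* mice. With WT cluster sizes it was 1.79% and 2.37%. The log2 ratios of *Vsir-/-* over WT in T cells moved most with 2 choices. Over all cells of the 4 clusters they were -0.071 for *Foxp3*, -0.11 for *Il2ra*, 0.13 for *Ctla4*, -1.26 for *Ikzf2*, -0.50 for *Tnfrsf18*, and 1.04 for *Tnfrsf4*. With WT cluster sizes they were -0.082, -0.18, 0.40, -1.05, -0.26, and 1.08. As UMIs per cell they were 1.52 for *Ctla4*, -0.11 for *Ikzf2*, 0.91 for *Tnfrsf18*, and 2.44 for *Tnfrsf4*, and with at most 5% mitochondrial UMIs -0.29 for *Ikzf2*. Without cells over 3 times the median UMIs of their cluster they were 1.40 for *Il2ra*, -0.16 for *Ikzf2*, 0.86 for *Tnfrsf18*, and 2.46 for *Tnfrsf4*. That alternative and the WT cluster sizes for the share were chosen after seeing the data.

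The Foxp3+ over Foxp3- log2 ratios of the 5 genes tested stayed above 1 under the alternatives run, except *Il2ra* in *Vsir-/-* mice after thinning to 1000 UMIs. No *Vsir-/-* Foxp3+ cell kept an *Il2ra* UMI there, so its value of -0.23 rests on the pseudocount and cannot decide the contrast. Thinning also gave 3.91 for *Il2ra*, 4.37 for *Ctla4*, and 2.96 for *Tnfrsf18* in WT mice, and 2.61 for *Ctla4* and 3.72 for *Tnfrsf18* in *Vsir-/-* mice. The CD4+ clusters alone gave 3.83 for *Il2ra*, 4.63 for *Ctla4*, and 4.37 for *Tnfrsf4* in WT mice. At least 2 *Foxp3* UMIs gave 4.39 for *Tnfrsf4* in WT mice, and 3.40 for *Tnfrsf18* and 4.75 for *Tnfrsf4* in *Vsir-/-* mice. All cells of the clusters gave 3.69 for *Il2ra*, 4.23 for *Ctla4*, 3.76 for *Ikzf2*, 3.76 for *Tnfrsf18*, and 5.25 for *Tnfrsf4* in *Vsir-/-* mice. The number of genes at least 2-fold higher in *Vsir-/-* T cells was 3314, and it was 2195 with at least 50 UMIs, 6810 with at least 1 UMI, and 5365 over all cells of the clusters. The number at least 2-fold lower was 788, and 1503 and 1300 under the latter pair. Except where stated above, the cause of a shift was not tested. No paired analysis was possible because each genotype has 1 library. Few UMIs limit *Il10*, and few cells limit *Foxp3* in the *Vsir-/-* CD8+ clusters, whose counts of 0 allow shares well above those of WT mice.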
